A study of Mus musculus with 7 samples.

Results

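Within a droplet single-cell library of cultured mouse primary myoblasts, 818 cells carried at least 3 unique molecular identifiers (UMIs, each standing for 1 captured transcript) of Pax7 while showing few transcripts of mitosis or of terminal differentiation. They are 32.8% of the 2493 cells of that library that passed the same filters, and 818 of the 15474 cell barcodes of the whole series. Cells were chosen by at least 200 detected genes, at most 10% mitochondrially encoded UMIs, at most 2 UMIs of Myog, fewer than 20 UMIs summed over Top2a, Mki67, Cenpf, Ube2c and Birc5, and at least 3 UMIs of Pax7. These are called Pax7-high cells here. They were set against the 541 cells (21.7%) that passed the same filters with 0 Pax7 UMIs, called Pax7-0 cells.

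The series holds 7 mouse libraries made with a droplet 3' kit, and every group is of the strain that the labels spell C56BL/6J. The primary myoblasts (1 library) came from hindlimbs of wild-type mice 3 months old and were grown on collagen in HAM's F10 with 10% horse serum, antibiotics and bFGF at 2.5 ng/ul, for 4 passages in 1 label and 4 to 5 in another. Injured muscle stem cells (MuSCs, 2 libraries) were isolated by sorting from TE-EDL muscles 60 h after notexin at 2 uM, and homeostatic MuSCs (2 libraries) were sorted from muscle for which no injury is named. Age and genotype are not given for the sorted MuSCs, and 2 total muscle libraries from wild-type mice of 3 months served here only to read background.

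Pax7 is a paired-box transcription factor that marks muscle satellite cells, the stem cells that lie along the muscle fibre. When satellite cells are activated or put in culture they become myoblasts, in which the transcription factors Myf5 and Myod1 are active, and further differentiation brings in Myog, loss of Pax7, exit from the cell cycle and sarcomere genes. Cultured myoblasts are known to be mixed in their Pax7 level, and cells that keep Pax7 without Myod1 have been described as reserve or self-renewing cells.

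The myoblast label was checked against 14 myogenic markers, of which Des had 822 CPM (UMIs per 1000000 UMIs summed over the cells) in Pax7-high cells and 706 CPM in Pax7-0 cells, Cdh15 had 194 and 154 CPM, and Vcam1 had 100.1 and 97.7 CPM. The satellite cell markers Chodl and Chrdl2 had no UMI in either class, and Msc had 1 UMI in Pax7-high cells and 2 in Pax7-0 cells. The summed level of the 14 markers, Pax7 included, was 3141 CPM in Pax7-high cells and 2321 CPM in Pax7-0 cells. A Myod1 UMI was found in nearly all of them: 11 of 818 Pax7-high cells (1.34%) held no UMI of either Myod1 or Myf5, against 41 of 541 Pax7-0 cells (7.58%). Both genes were detected in 137 Pax7-high cells (16.7%) and in 81 Pax7-0 cells. As background, 7 of 18 barcodes of another cell type in this library, described next, held neither gene and the rest held at least 1 UMI, at a median depth of 32610.5 UMIs, so detection alone is not expression here. The genes of the rule are a description only: Myog had 31.9 CPM in Pax7-high cells and 36.6 CPM in Pax7-0 cells, Mki67 had 7.14 and 18.2 CPM, and the median of the summed mitotic UMIs was 1 in both classes.

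Among the Pax7-0 cells, 18 barcodes had at least 10 UMIs over Bgn and Igfbp7, and none of the Pax7-high cells did. Their leading genes against Pax7-high cells were Timp3 at 1040 CPM, Col1a2 at 648 CPM and Bgn at 1721 CPM, with Myod1 at 27.1 CPM, and they are called stromal barcodes. They were found after the values had been seen, so matrix genes are given below with and without them. Most markers of other cell types were near 0 in Pax7-high cells, apart from the mural markers Acta2, Rgs5 (13.9 CPM) and Notch3 (12.6 CPM), from Scx and from Gsn and Cd34 of the fibro-adipogenic list (75.8 and 8.63 CPM). The 7 endothelial markers summed to 0.749 CPM in Pax7-high cells and 12.8 CPM in Pax7-0 cells (0.49 CPM without the stromal barcodes), with Cdh5 and Cldn5 at 0 in both. The 10 fibro-adipogenic markers summed to 87.3 CPM in Pax7-high cells and 112 CPM in Pax7-0 cells (84.5 CPM without the stromal barcodes), with Lum at 0 in both and Pdgfra at 1 and 24 UMIs. The 7 macrophage or monocyte markers summed to 4.10 and 5.30 CPM with C1qa, C1qb and Adgre1 at 0, the 5 lymphocyte markers in the files to 0.0881 and 0.186 CPM with Cd3e and Nkg7 at 0, the 5 glial markers to 4.05 and 5.49 CPM with Sox10 at 0, and the 5 erythroid markers to 0. Mural markers summed to 636 CPM in Pax7-high cells and 623 CPM in Pax7-0 cells, almost wholly Acta2, with Myh11 at 0 in both. Tenocyte markers summed to 45.0 and 27.3 CPM, almost wholly Scx, with Fmod at 0 in both.

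Pax7, on chromosome 4 at 139737059 to 139833530 (GRCm38), was the gene that chose the cells, so its values are a description. Pax7-high cells held 3 to 11 Pax7 UMIs with a median of 4, and 155 CPM in all (95% exact Poisson interval 150.1 to 160.4 CPM, which covers counting error only, as do the intervals that follow). The 322 cells with 3 Pax7 UMIs lay just inside the limit, at 117 CPM, and the 513 cells with 2 lay just outside it, at 81.9 CPM. Cells left out for mitotic UMIs (1030 of 4414) had 77.8 CPM of Pax7 and cells left out for Myog alone (891) had 52.8 CPM. A Pax7 UMI was found in 83.2% of those mitotic cells (exact binomial interval 80.8% to 85.4%) and 56.9% of those Myog cells (53.6% to 60.2%), at median depths of 28720.5 and 24965 UMIs. As background, 0 of 377 and 0 of 398 cells with a Ptprc UMI in total muscle held a Pax7 UMI, at median depths of 2579 and 2684 UMIs. The exact binomial intervals of those shares reach 0.974% and 0.923%.

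Depth moved with the choice of cells. Pax7-high cells had a median of 26043 UMIs (7950 to 63434) and Pax7-0 cells a median of 20315 (5250 to 58170). With 10 depth bins of like size set on the Pax7-high cells, the lowest held 82 of those and 246 of the 541 Pax7-0 cells. Bins 9 and 10, the deepest, held 82 Pax7-high cells each but 5 and 15 Pax7-0 cells, of which 2 and 6 were stromal barcodes. A cell with 0 Pax7 UMIs can hold Pax7 transcripts that were not captured. The difference between the classes was therefore computed in 3 ways: from summed UMIs, with Pax7-0 cells weighted to the depths of the Pax7-high cells, and after thinning each cell to 10000 UMIs, which left out 4 Pax7-high and 77 Pax7-0 cells. At the highest depths the weighted values rest on few Pax7-0 cells, many of them stromal barcodes, which limits that check. Only 14 of the 818 barcodes also occurred in another library. The injured libraries 1 and 2 shared 251 barcodes with each other, and calls were made again without barcodes shared within a group. Among the named genes this ended 4 calls and made 2 within the sorted libraries, ended 1 against injured MuSCs (Cd34, log2 fold -0.54) and changed no call against homeostatic MuSCs.

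**Figure D1:**
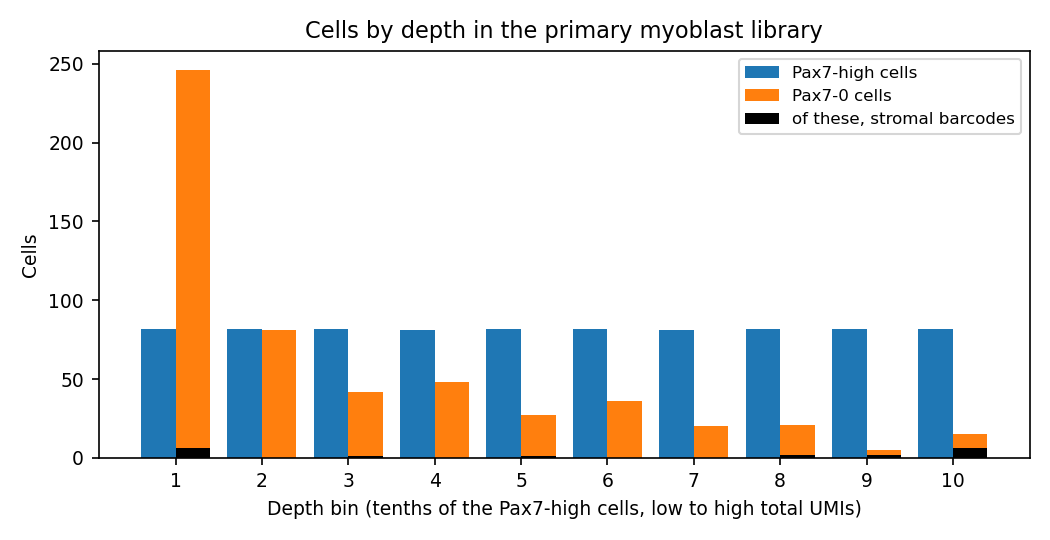
Number of cells (vertical axis) in 10 bins of total UMIs per cell, from low to high depth, set to hold like numbers of the 818 Pax7-high cells. Blue bars are Pax7-high cells, orange bars the 541 Pax7-0 cells, and the black part of an orange bar the 18 stromal barcodes: 246 Pax7-0 cells fall in the lowest bin, and 5 and 15 in bins 9 and 10.

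With 1 library there is no replicate of the culture, so the differences between Pax7-high and Pax7-0 cells have no test and describe this library alone. Of 7519 genes with a mean of at least 10 CPM over both classes, 486 had a log2 fold above 0.32 in Pax7-high cells (6.46%) and 382 a log2 fold below minus that size (5.08%); these are called higher and lower here. The median log2 fold over all 7519 was 0.0037. Counts within gene lists below are to be read beside the shares of 6.46% and 5.08%. In all 3 ways of computing the difference, 284 genes were higher and 230 lower. Without the stromal barcodes as well, 220 stayed higher and 165 lower in all ways. Since the cells were chosen on Pax7 in this same contrast, these counts carry no weight as a finding on Pax7.

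The galanin gene Gal, on chromosome 19 at 3409915 to 3414544, showed the largest positive difference among genes of at least 30 CPM. It had 1099 CPM in Pax7-high cells and 441 CPM in Pax7-0 cells, a fold of 2.49 (95% exact interval 2.41 to 2.57), or 2.74 with depth weighting. After thinning to 10000 UMIs the Pax7-high cells held 0 to 271 Gal UMIs with a median of 1, and the Pax7-0 cells 0 to 207 with a median of 0. The distributions overlapped over nearly their whole range, and 5 cells held 13.95% of the Gal UMIs of Pax7-high cells and 32.3% of those of Pax7-0 cells.

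AA467197 had 354 CPM in Pax7-high cells and 182 CPM in Pax7-0 cells (1.94-fold, 1.85 to 2.04). Cdon, a surface receptor of the immunoglobulin superfamily that promotes myogenic differentiation, had 99.9 CPM in Pax7-high cells and 53.7 CPM in Pax7-0 cells (1.86-fold, 1.70 to 2.04). Rbm24, an RNA-binding regulator of muscle splicing, had 52.2 and 28.6 CPM (1.82-fold, 1.60 to 2.07). Both Cdon and Rbm24 were higher still in the cells with more than 2 Myog UMIs, at 151 and 142 CPM, as were Scx, a transcription factor of tendon progenitors (44.1 CPM in Pax7-high cells, 26.3 CPM in Pax7-0 cells, 131 CPM in the Myog cells), and Shisa2, a membrane protein (47.6, 28.6 and 164 CPM). The opposite held for Il33, a nuclear cytokine, which had 91.0 CPM in Pax7-high cells, 53.9 CPM in Pax7-0 cells and 43.8 CPM in the Myog cells, and for AA467197, at 154 CPM there.

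Binding proteins of insulin-like growth factors were also among the 15 largest. Igfbp5 had 138 CPM in Pax7-high cells and 78.2 CPM in Pax7-0 cells (1.76-fold, 1.63 to 1.91), and Igfbp3 had 100.1 and 59.7 CPM (1.68-fold, 1.53 to 1.83). In the cells with more than 2 Myog UMIs, Igfbp5 had 136 CPM and Igfbp3 163 CPM. The others of the 15 were Sema6a (a transmembrane semaphorin, 1.93-fold), Mtss1 (an actin and membrane-bending protein, 1.74-fold), Spats2l (1.70-fold), Gas6 (a ligand of TAM receptor kinases, 1.67-fold), Cxxc5 (a zinc finger protein, 1.66-fold) and Sytl2 (a Rab27 effector, 1.64-fold). Sytl2 had 102 CPM in the Myog cells against 79.3 CPM in Pax7-high cells. Gas6 (52.8 against 44.8 CPM) and Spats2l (50.6 against 43.3 CPM) were higher there too. Sema6a was nearly level between the Myog cells and Pax7-high cells. Mtss1 (75.8 against 78.5 CPM), Cxxc5 (95.8 against 111 CPM) and Gal (608 against 1099 CPM) were lower in the Myog cells. By the choice of genes, all 15 were past the threshold in the 3 ways of computing the fold, and all 15 were past it without the stromal barcodes.

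**Figure D2:**
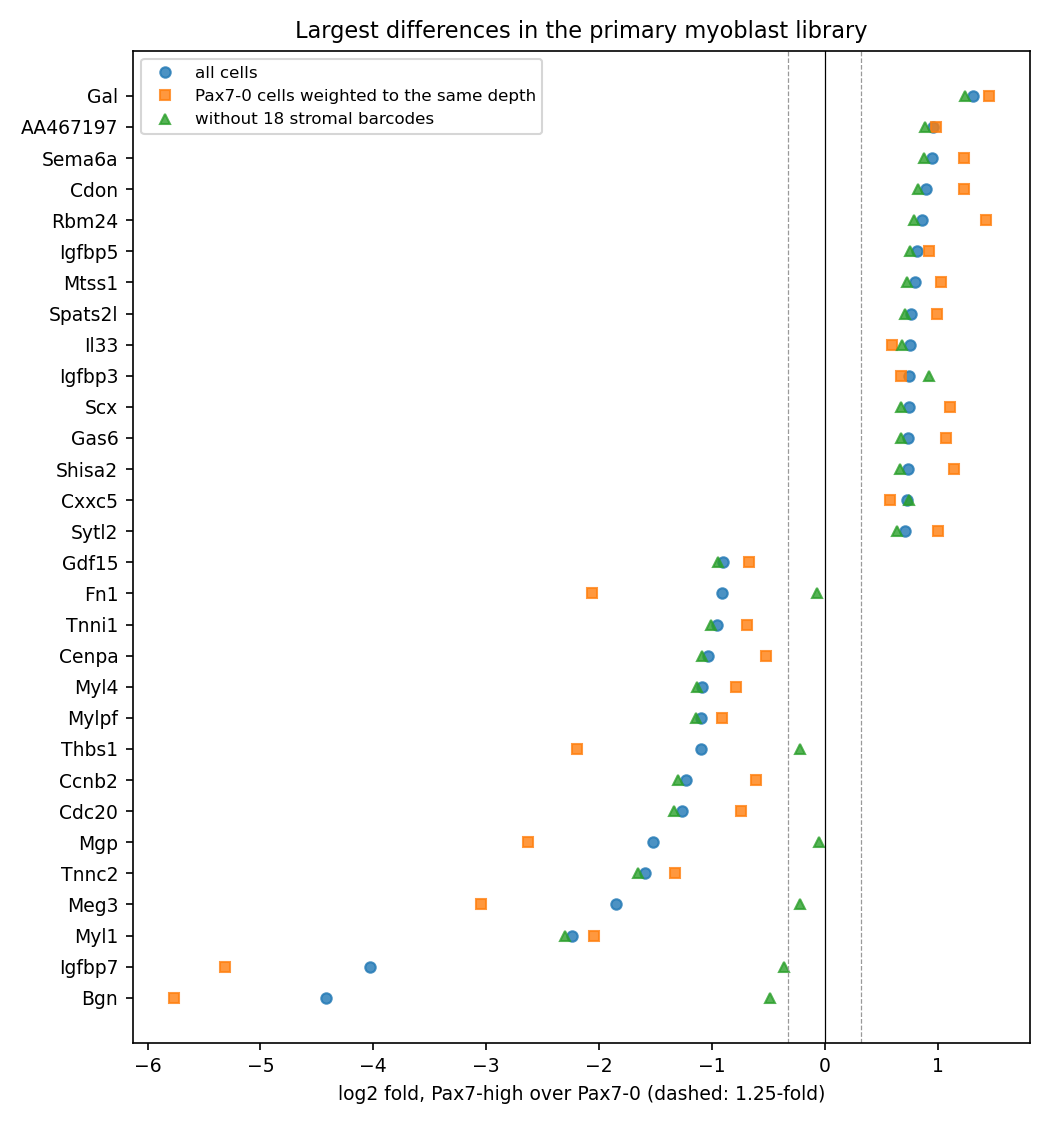
The log2 fold of Pax7-high over Pax7-0 cells (horizontal axis, dashed lines at the threshold) for the 15 genes with the largest positive and the 15 with the largest negative difference of at least 30 CPM. Circles are summed UMIs, squares the depth-weighted value and triangles the value without 18 stromal barcodes: Bgn moves to -0.49 and Fn1 to -0.07 without those barcodes, while Gal stays at 1.24.

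Of 23 myogenic transcription factors above 10 CPM, 10 were higher in Pax7-high cells and 3 lower, with a median log2 fold of 0.28. Myod1, on chromosome 7 at 46376474 to 46379092, is the basic helix-loop-helix factor that commits cells to the muscle lineage. It had 621 CPM in Pax7-high cells and 436 CPM in Pax7-0 cells (1.43-fold, 1.38 to 1.47). The cells with more than 2 Myog UMIs had more, at 914 CPM. After thinning, Pax7-high cells held 0 to 37 Myod1 UMIs with a median of 5, and Pax7-0 cells 0 to 28 with a median of 3. Myod1 was thus higher, not lower, in the cells with more Pax7, although the ranges overlapped. Myf5, the related factor of early myoblasts, was low in both, at 9.07 CPM (206 UMIs) in Pax7-high cells and 13.2 CPM (142 UMIs) in Pax7-0 cells. Its log2 fold was -0.54, -0.09 with depth weighting and -0.26 after thinning.

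Some partners and cofactors of these factors were somewhat higher. Tcf12, a helix-loop-helix partner of Myod1, had 143 CPM in Pax7-high cells and 99.8 CPM in Pax7-0 cells (1.43-fold, 1.33 to 1.53). Others stayed under the threshold, with log2 folds of 0.15 for Tcf3, 0.30 for Tcf4, 0.27 for Mef2a and 0.28 for Mef2d. The homeobox factors Six2 (20.3 and 15.3 CPM), Six4 (27.4 and 21.2 CPM) and Pitx3 (72.0 and 54.3 CPM), and Pax3, the close relative of Pax7 (12.1 and 9.39 CPM), lay between 1.29-fold and 1.33-fold. The interval of Pax3 was wide, at 1.02 to 1.64. Without the stromal barcodes Six4 (log2 fold 0.31) and Pax3 (0.30) ended just under the threshold. Klf5, a zinc finger factor of differentiating muscle, was lower, at 17.7 CPM in Pax7-high cells and 26.5 CPM in Pax7-0 cells. Mef2c, a MADS-box factor of differentiation, had 3.83 CPM in Pax7-high cells and 17.7 CPM in Pax7-0 cells, and 5 cells held 64.2% of its 190 UMIs in Pax7-0 cells.

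Genes of satellite cells and of quiescence did not move as a block. Of 25 measured, 13 were higher in Pax7-high cells and 4 lower (median log2 fold 0.33), and without the stromal barcodes 11 were higher and 2 lower. Peg3, an imprinted zinc finger factor of satellite cells, had 489.7 CPM in Pax7-high cells and 304 CPM in Pax7-0 cells (1.61-fold, 1.55 to 1.67). Notch1, the receptor, had 45.2 and 29.5 CPM (1.53-fold, 1.35 to 1.74), while Notch2 had 11.1 and 16.8 CPM (0.66-fold, 0.54 to 0.80). Gpx3, a secreted glutathione peroxidase, had 49.6 and 32.6 CPM, and Met, the receptor of hepatocyte growth factor, had 48.2 and 34.3 CPM. In the cells with more than 2 Myog UMIs, Peg3 had 475.5 CPM, Notch1 47.7 CPM, Gpx3 46.6 CPM and Met 28.9 CPM. The levels of Peg3, Notch1 and Gpx3 were thus not particular to Pax7-high cells. Cd34, a surface sialomucin, had 8.63 CPM in Pax7-high cells and 15.6 CPM in Pax7-0 cells, but 10.9 CPM in Pax7-0 cells without the stromal barcodes. Of 11 measured genes of the Notch pathway, 2 were higher (Notch1 and Hes6) and 1 lower (Notch2), Hes6 ending just under the threshold without the stromal barcodes (log2 fold 0.31), and the DNA-binding mediator Rbpj had a log2 fold of -0.03. Hes6 had 231 CPM in Pax7-high cells, 178 CPM in Pax7-0 cells and 564 CPM in the cells with more than 2 Myog UMIs.

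Id3, an inhibitor of helix-loop-helix factors that bone morphogenetic proteins (BMPs) switch on, was the most abundant of these signalling genes. It had 970.1 CPM in Pax7-high cells and 697 CPM in Pax7-0 cells (1.39-fold, 1.36 to 1.43). Id1 had 232 and 180.3 CPM and Id2 152 and 117 CPM. The secreted BMP and activin antagonists of the same list went the other way: Grem1 had 111 and 159 CPM, Fst 10.7 and 16.6 CPM, and the related Fstl1 30.1 and 50.3 CPM, of which Fstl1 had 32.8 CPM in Pax7-0 cells without the stromal barcodes. Of the 12 measured genes of the BMP and Id axis, 3 were higher and 3 lower. Of 12 genes of FGF signalling and its feedback, 3 were higher and none lower. They were Etv1, an ETS factor downstream of FGF, at 27.3 CPM in Pax7-high cells and 12.6 CPM in Pax7-0 cells (2.18-fold, 1.80 to 2.64), the phosphatase Dusp6 at 104 and 78.7 CPM, and the receptor Fgfr1 at a log2 fold of 0.35. The receptor Egfr had 41.1 CPM in Pax7-high cells and 27.0 CPM in Pax7-0 cells (1.52-fold, 1.33 to 1.74). Of 12 genes of the TGF-beta and activin axis none was higher and 4 were lower, among them Inhba, an activin subunit, which had 303 CPM in the stromal barcodes. Without those barcodes 3 were lower.

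Many of the largest negative differences were of matrix genes that were high in the stromal barcodes. Bgn, the proteoglycan biglycan, had 4.40 CPM in Pax7-high cells and 94.5 CPM in Pax7-0 cells, and 6.18 CPM in Pax7-0 cells without those 18 barcodes. Bgn and Igfbp7 chose the barcodes, so their lower level without them is fixed by that choice and shows nothing more. Mgp, matrix Gla protein, had 79.8 and 229 CPM, and 82.9 CPM in Pax7-0 cells without them. Fn1, fibronectin, had 134 and 253 CPM, and 141 CPM without them. Of 23 matrix genes, 2 were higher and 8 lower in all cells, and 6 higher and 3 lower without the stromal barcodes. Meg3, Thbs1, Timp3 and Col1a2 had folds of 0.28, 0.47, 0.021 and 0.028 in all cells. Once the 18 barcodes were left out, these were 0.86, 0.86, 0.58 and 1.24. Col1a2 was then near 0 in both classes, at 0.97 CPM (22 UMIs) in Pax7-high cells and 0.78 CPM in Pax7-0 cells.

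A second set of negative differences, of sarcomere genes, came with a few cells. Of 26 measured genes of differentiation and fusion, 15 were lower and 6 higher in Pax7-high cells (median log2 fold -0.47). Myl1, a myosin light chain, had 31.6 CPM in Pax7-high cells and 149.6 CPM in Pax7-0 cells, a fold of 0.21 (0.19 to 0.23). After thinning, 1 Pax7-0 cell reached 317 Myl1 UMIs and the highest Pax7-high cell 3, with a median of 0 in both classes. The 5 highest cells held 77.5% of the Myl1 UMIs of Pax7-0 cells and 2.92% of those of Pax7-high cells. The same 5-cell share in Pax7-0 cells was 49.1% for Mylpf (112 CPM in Pax7-high cells, 239 CPM in Pax7-0 cells), 47.5% for Myl4 (70.4 and 149.7 CPM), 69.4% for Tnnc2 (16.7 and 50.5 CPM) and 45.9% for Tnni1 (34.2 and 66.5 CPM). Between the 291 Pax7-high and the 240 Pax7-0 cells with 0 Myog UMIs the log2 folds were 0.0079 for Myl1, -0.21 for Mylpf, -0.11 for Tnnc2, -0.16 for Tnni1 and -0.44 for Myl4, and 0.71 for Tnni2, a troponin subunit at 7.66 CPM in Pax7-high cells and 17.1 CPM in Pax7-0 cells over all Myog classes of the rule. In the cells with more than 2 Myog UMIs these genes stood at 2580 CPM for Myl1 and 6642 CPM for Mylpf.

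The 6 genes of this list that were higher in Pax7-high cells included parts of the neuromuscular junction and of the excitation machinery. They were Rbm24, the acetylcholine receptor subunits Chrng (log2 fold 0.64) and Chrnd (0.42), the calcium release channel Ryr1 (0.52), the giant sarcomere protein Ttn (0.45) and the cadherin Cdh15 (0.33). The names were taken after their values were seen.

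Mitotic genes were lower in Pax7-high cells, and the limit on mitotic UMIs touches them. Of 27 measured genes of G2 and M phase that the limit did not use, 20 were lower and none higher, and 16 were lower in all 3 ways. The median log2 fold was -0.92, -0.39 with depth weighting, -0.92 after thinning and -0.99 without the stromal barcodes. Cdc20, an activator of the anaphase-promoting complex, had 41.8 CPM in Pax7-high cells and 100.4 CPM in Pax7-0 cells. Ccnb2, a mitotic cyclin, had 24.0 and 56.2 CPM, and Cenpa, the centromeric histone, 44.9 and 91.8 CPM. The 5 genes of the limit themselves summed under 20 UMIs in every cell, and the limit is an absolute count, which a deeper cell reaches at a lower level; Pax7-high cells were the deeper ones. Among cells with fewer than 5 such UMIs, 711 Pax7-high and 410 Pax7-0, the log2 fold of Cdc20 was -0.58 in place of -1.26. Of 34 S phase genes 7 were lower and none higher (median -0.13), but only 1 was lower in all 3 ways of computing the fold, and the depth-weighted median was -0.02. Ccnd3, the D-type cyclin of muscle, was higher, with 218 CPM in Pax7-high cells and 148 CPM in Pax7-0 cells (1.48-fold, 1.39 to 1.56). It had 444 CPM in the cells with more than 2 Myog UMIs.

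Of 18 genes of oxidative stress and metallothioneins 3 were lower in Pax7-high cells and 1, Gpx3, higher. Over all genes the shares were 5.08% lower and 6.46% higher. Of 13 heat shock genes 1 was lower, which is near the share over all genes. Hmox1, heme oxygenase, had 41.4 CPM in Pax7-high cells and 66.3 CPM in Pax7-0 cells (0.62-fold, 0.57 to 0.69), Gclm, a glutathione synthesis subunit, had 72.4 and 109.8 CPM (0.66-fold), and Atf3, a stress-induced factor, had 8.28 and 20.9 CPM (0.40-fold). Of 20 immediate early genes 7 were lower and 1, Klf10, higher. Of 23 genes of serine and one-carbon metabolism and the amino acid response 8 were lower and none higher, and 3 were lower in all 3 ways. Trib3 had 116 CPM in Pax7-high cells and 154 CPM in Pax7-0 cells. Central metabolism was nearly even between the classes. None of 23 genes of the tricarboxylic acid cycle passed the threshold, and Mdh2 had 697 CPM in Pax7-high cells and 679 CPM in Pax7-0 cells. Of 19 glycolysis genes 3 were lower, none of them in all 3 ways, and of 80 ribosomal protein genes none passed it, and of 8 mitochondrially encoded genes none did.

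Some of the differences ran in steps over the Pax7 classes of the library. Of the 15 genes with the largest positive difference, 5 were higher in each class than in the one before it (Gal, Cdon, Igfbp5, Igfbp3 and Cxxc5), while the other 10 were not, such as Rbm24 at 49.2 CPM with 3 Pax7 UMIs and 41.2 CPM with 4. The genes were chosen on the lowest class against those with 3 or more, so the ends of each run were set by that choice. Gal had 441 CPM in cells with 0 Pax7 UMIs, 678 with 1, 680.0 with 2, 984 with 3, 1035 with 4 and 1261 with 5 or more. Etv1 had 12.6, 15.8, 19.3, 22.7, 24.5 and 34.0 CPM over the same classes, and Cdon 53.7, 75.5, 83.3, 93.8, 97.0 and 108 CPM. Myod1 had 436, 537, 611, 633, 569 and 649 CPM, and Igfbp5 78.2, 94.8, 103, 113, 122 and 175 CPM. Bgn and Myl1 had no such steps: Myl1 had 149.6 CPM with 0 Pax7 UMIs and between 31.0 and 33.3 CPM in every other class, and Bgn 94.5 CPM and then 3.51 to 5.67 CPM. Cdc20 had 100.4, 89.4, 56.8, 62.1, 33.4 and 27.8 CPM. The median depth moved with the classes too, from 20315 UMIs in the lowest to 28866 in the highest, and its part in the steps was not tested.

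**Figure D3:**
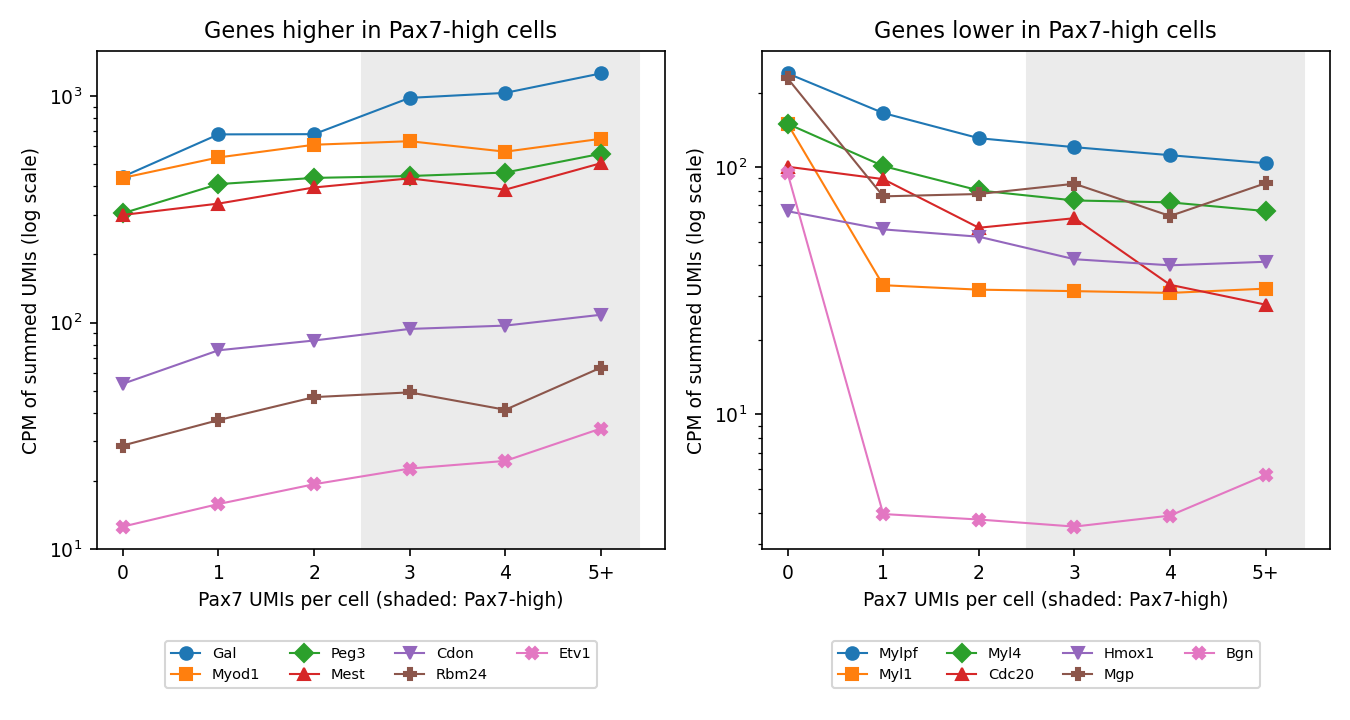
Level in CPM of summed UMIs (vertical axis, log scale) in myoblasts with 0 to 5 or more Pax7 UMIs per cell (horizontal axis; Pax7-high cells shaded), for 7 genes higher (left) and 7 lower (right) in Pax7-high cells. Gal and Etv1 climb over the classes, whereas Bgn and Myl1 drop only between 0 and 1 Pax7 UMI.

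A test on libraries that the choice of cells had not used was possible in the sorted MuSCs. In each, myogenic cells (at least 2 UMIs over Myod1, Myf5, Des, Cdh15, Chodl, Msc and Sdc4) under the same limits were split into those with a Pax7 UMI and those without. There were 58 and 1039 cells in injured 1, 55 and 1651 in injured 2, 134 and 1341 in homeostatic 1, and 76 and 1223 in homeostatic 2. The cells with a Pax7 UMI were deeper in each library, for example with a median of 8511.5 against 7223 UMIs in injured 1. At these depths a cell that holds Pax7 transcripts can be without a Pax7 UMI.

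Few genes were called in these sorted cells. With edgeR's quasi-likelihood test, library as a block and a Benjamini-Hochberg adjusted p under 0.05 over 9277 genes, 16 genes were higher in cells with a Pax7 UMI (0.172%) and 72 lower (0.776%), with a biological coefficient of variation of 10.3%. At an unadjusted p under 0.05 there were 126 and 761, and DESeq2 called 1 higher and 3 lower. Of the 15 genes with the largest positive difference in myoblasts, 13 could be tested, of which none was called higher, 7 had a positive log2 fold and the median was 0.12, beside a median of -0.12 over all genes. At a background of 0.172% a count of 0 of 13 says nothing about these genes. Gal was called lower, by 0.42 on the log2 scale (SE 0.08, Benjamini-Hochberg adjusted p = 0.000223, edgeR). Its level was 667 and 780.3 CPM in cells with and without a Pax7 UMI in injured 1, 621 and 589 CPM in injured 2, 2736 and 4268 CPM in homeostatic 1, and 4428 and 5245 CPM in homeostatic 2. It was lower in 3 of the 4 libraries, and the call ended without homeostatic 1 (log2 fold -0.28), injured 1 (-0.39) or injured 2 (-0.43), without the shared barcodes (-0.38), with no block (-0.38), after thinning (-0.76) and with DESeq2 (-0.28).

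Of 26 myogenic transcription factors and 21 genes of differentiation and fusion, edgeR called 0, which is near the share over all genes, with Myod1 at a log2 fold of -0.20 (SE 0.10, Benjamini-Hochberg adjusted p = 0.50, edgeR) and Myf5 at 0.08 (SE 0.13). Of 16 heat shock genes 7 were called higher and 2 lower, led by Hspa1a (log2 fold 2.09, SE 0.12) and Hspa1b (1.94, SE 0.18), and of 27 immediate early genes 5 were called higher, led by Nr4a1 (1.57) and Fos (1.11). The counts called higher depended on the setting, at 1 heat shock and 0 immediate early genes with DESeq2, 2 and 1 with no block, 3 and 2 after thinning, and 4 and 2 without homeostatic 1. The Hspa1a UMIs were nearly all in the homeostatic libraries, with 3823 and 7232 UMIs in cells with and without a Pax7 UMI in homeostatic 1, 852 and 2216 in homeostatic 2, 0 and 15 in injured 1, and 0 and 20 in injured 2. The same classes held 353061 and 3194901 UMIs of all genes in homeostatic 1, and 204160 and 2998863 in homeostatic 2, so UMIs of a gene are not its level. In the myoblasts, heat shock genes were 0 higher and 1 lower of 13, near the shares over all genes there, so no contrast with the sorted cells is read from them. Of 41 matrix genes 7 were called lower, but 0 of 36 with a stricter gate, in which markers of other cell types had to have fewer UMIs than the gate genes. Dcn, a proteoglycan of fibroblasts, had 7 and 717 UMIs in cells with and without a Pax7 UMI in homeostatic 1, and 9 and 1022 UMIs in homeostatic 2, out of the unequal class totals given above. With the stricter gate, 20 genes were higher and 23 lower in place of 72. Without any 1 of the 4 libraries the number lower lay between 19 and 38 and the number higher between 8 and 26. After thinning every cell to 1000 UMIs before setting the classes, edgeR called 0 genes, with 32 higher and 785 lower at an unadjusted p under 0.05. The class with a Pax7 UMI then held only 5 and 15 cells in injured 1 and 2, and 64 and 24 in homeostatic 1 and 2. With so few cells this setting cannot decide whether the calls depend on depth.

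The Pax7-high myoblasts were last set against the myogenic cells of injured and homeostatic muscle, to place them among the states the study compared. The 818 cells were summed into 1 library and fitted together with the 4 sorted libraries in edgeR, so both comparisons share the myoblast library, and the spread of the lone myoblast library was taken to equal that of the sorted ones, so the standard errors and p-values say nothing of the spread between myoblast cultures (biological coefficient of variation 13.0%). Of 12355 genes, 3816 were higher (30.9%) and 3401 lower (27.5%) than in injured MuSCs, and 4448 were higher (36.0%) and 4037 lower (32.7%) than in homeostatic MuSCs, at a Benjamini-Hochberg adjusted p under 0.05. Culture, sort, depth and library cannot be told apart in these comparisons. They depend on scaling: without TMM scaling the median log2 fold of all genes was 0.82 in place of 0.12 against injured MuSCs, with 6689 higher and 1986 lower, and 0.46 in place of 0.10 against homeostatic MuSCs, with 5446 higher and 3236 lower.

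The satellite cell and quiescence genes were mostly below the homeostatic level. Of 44 tested, 5 were higher and 35 lower than in homeostatic MuSCs (median log2 fold -3.19), and 5 and 33 without scaling. Against injured MuSCs 13 were higher and 23 lower (median -0.81), but 16 and 17 without scaling. Meg3, a maternally expressed long noncoding RNA, had 14.5 CPM in Pax7-high cells, 1.63 and 1.69 CPM in the injured libraries, and 4953 and 4756 CPM in the homeostatic libraries. Gpx3 had 49.6 CPM in Pax7-high cells, 20.4 and 27.6 CPM in injured, and 3494 and 3646 CPM in homeostatic libraries. Cd34 had 8.63 CPM, 7.89 and 10.2 CPM, and 82.6 and 59.6 CPM in the same order. Peg3 stood apart from these, at 489.7 CPM in Pax7-high cells, 84.3 and 100.3 CPM in injured and 182 and 152 CPM in homeostatic libraries. Its log2 fold was 1.70 against injured and 1.19 against homeostatic MuSCs. Pax7-0 myoblasts, at 304 CPM of Peg3, lay above both sorted groups too. Hes6, an inhibitor of Hes1 that favours differentiation, had 231 CPM in Pax7-high cells, 98.1 and 94.2 CPM in injured and 3.10 and 3.12 CPM in homeostatic libraries.

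The levels of the myogenic factors put Pax7-high myoblasts at neither sorted state. Myf5 had 9.07 CPM in Pax7-high cells, 235 and 386 CPM in injured and 194 and 248 CPM in homeostatic libraries. Its log2 fold was -5.80 against injured and -4.96 against homeostatic MuSCs. Myf5 was also low in other myoblasts, at 13.2 CPM in Pax7-0 cells and 7.26 CPM in the cells with more than 2 Myog UMIs. Myod1 had 621 CPM in Pax7-high cells, 212 and 241 CPM in injured and 1657 and 1730 CPM in homeostatic libraries. The log2 folds of Myod1 were 0.75 against injured and -1.81 against homeostatic MuSCs. Both genes belong to the gate that chose the sorted cells. The 30 tested myogenic factors had a median log2 fold of -0.54 against homeostatic MuSCs, beside 0.10 over all genes. Against injured MuSCs the balance of higher and lower factors turned without scaling, so no direction is read for the list. Snai2, a zinc finger repressor of myoblasts, was higher than in both, at 129 CPM in Pax7-high cells, 35.2 and 41.8 CPM in injured and 18.04 and 15.92 CPM in homeostatic libraries. So was Pitx3, with log2 folds of 1.94 against injured and 5.38 against homeostatic MuSCs. Pax7-0 myoblasts, at 106 CPM for Snai2 and 54.3 CPM for Pitx3, lay above both sorted groups as well.

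Other genes of the myoblast contrast had mixed positions. Gal had 1099 CPM in Pax7-high cells, 773 and 590.3 CPM in injured and 4115 and 5193 CPM in homeostatic libraries. Its log2 folds were -0.02 against injured and -2.44 against homeostatic MuSCs. Cdon had 99.9 CPM, 12.7 and 17.3 CPM, and 20.9 and 11.9 CPM in the same order, higher than in both (log2 folds 2.05 and 2.23). AA467197 had 354 CPM in Pax7-high cells, 2.88 and 3.05 CPM in injured and 0 and 0.624 CPM in homeostatic libraries. Notch1 had 45.2 CPM in Pax7-high cells, 6.52 and 4.40 CPM in injured and 52.7 and 44.3 CPM in homeostatic libraries, while Notch2 had 11.1 CPM, 240.4 and 405 CPM, and 56.1 and 48.4 CPM. Dusp6 had 104 CPM in Pax7-high cells, 8.52 and 8.63 CPM in injured and 23.1 and 22.8 CPM in homeostatic libraries, and Etv1 27.3 CPM, 0.501 and 1.02 CPM, and 4.51 and 2.19 CPM. Against both sorted groups Dusp6 and Etv1 were higher, as was Mest, an imprinted gene, at 447 CPM in Pax7-high cells, 63.9 and 76.5 CPM in injured and 45.9 and 29.97 CPM in homeostatic libraries. Pax7-0 myoblasts lay above both sorted groups too, at 53.7 CPM for Cdon, 182 for AA467197, 78.7 for Dusp6, 12.6 for Etv1 and 299 for Mest. For these genes a level above the sorted cells was thus not particular to Pax7-high cells.

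**Figure D4:**
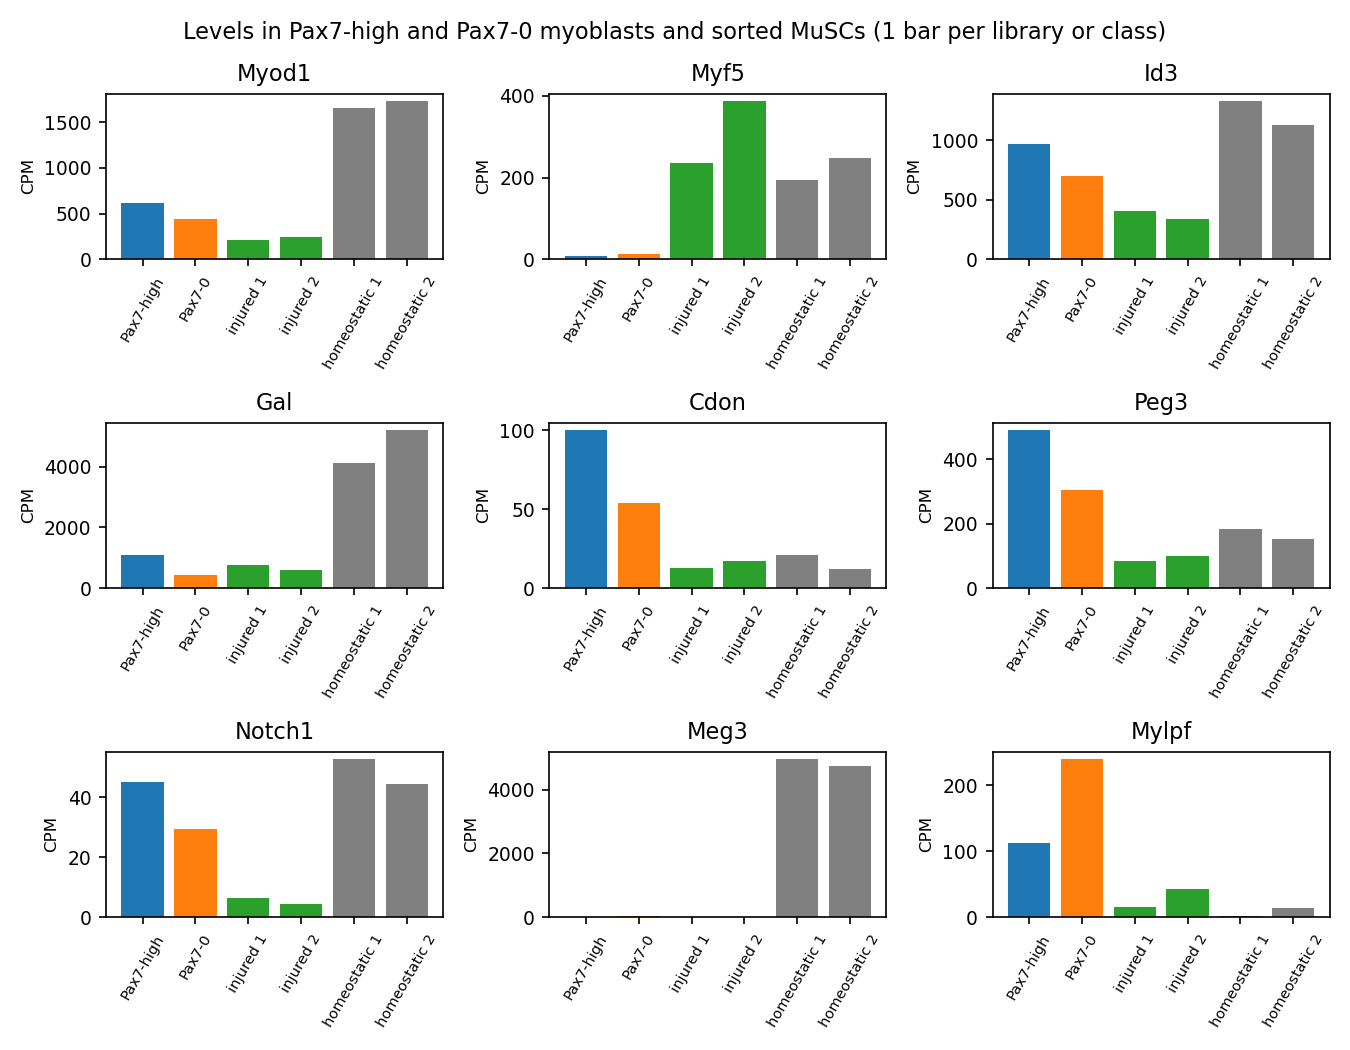
Level in CPM of summed UMIs (vertical axes, linear, starting at 0) of 9 genes, with 1 bar for Pax7-high and 1 for Pax7-0 myoblasts and 1 bar for the gated cells of each injured and each homeostatic MuSC library. Meg3 is high only in the 2 homeostatic libraries (4953 and 4756 CPM), and Myf5 is lowest in the myoblast classes. Of the bars shown, those of Cdon and Peg3 are highest in Pax7-high cells, followed by Pax7-0 cells.

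Cell cycle, stress and immune lists were also compared between the states. Their counts, with and without scaling, are to be read beside those over all genes given above. Of 40 G2 and M phase genes, 1 was higher and 36 lower than in injured MuSCs, and 34 were higher and 3 lower than in homeostatic MuSCs. The limit of 20 mitotic UMIs, at a median of 26043 UMIs per Pax7-high cell, reaches a lower level than in the injured libraries, whose passing cells had medians of 7185.5 and 3114.5 UMIs. Immediate early genes were 6 higher and 16 lower of 27 against injured MuSCs, and 1 higher and 25 lower against homeostatic MuSCs. Interferon response genes were 4 higher and 13 lower of 27 against injured, and 0 higher and 26 lower against homeostatic MuSCs. Genes of differentiation and fusion were 20 higher and 7 lower of 35 against injured, and 22 higher and 5 lower against homeostatic MuSCs. Without scaling the interferon genes were 7 higher and 9 lower and the immediate early genes 9 and 13 against injured MuSCs, while G2 and M phase genes were 3 and 33. The 46 matrix genes had a median log2 fold of -0.29 against injured MuSCs, turning to 0.31 without scaling, so no direction is read there. Against homeostatic MuSCs their median was -2.41, beside 0.10 over all genes. Fibroblast transcripts in the sorted libraries, such as the Dcn UMIs above, move with these medians, and their part in them was not tested.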

How the data were processed

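For each of 7 libraries the authors deposited a matrix of UMI counts, whole numbers with no normalization as the file headers and values show. Seurat 2.3.4, Cell Ranger 2.2.0, bcl2fastq 2.17.1 and the build mm10 are listed, with no role or order, per the submitters' processing notes. The members and gene lists were chosen with earlier results of these data known. Libraries held 3319283 to 114382567 UMIs, the myoblast library the most, so its sums are the most precise. The labels tie no 2 libraries of a group to separate animals, so p-values measure only the spread between these libraries, which may be technical.

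CPM is UMIs of a gene per 1000000 summed over a class of cells (Python 3.11.15, numpy 2.4.6, scipy 1.17.1, scanpy 1.11.5). Folds carry exact 95% intervals for counting error, which do not cover the spread among cells. Genes with a mean of at least 10 CPM were counted past a log2 fold of 0.32 either way. Scrublet called 7 doublets in the myoblast library, too few to use, and leaving out the 157 highest scores was an alternative. Summed counts of the sorted libraries were tested with edgeR 4.0.16 (R 4.3.3, quasi-likelihood, TMM, filterByExpr, Benjamini-Hochberg adjusted p under 0.05), and the standard error is the log2 fold divided by the root of F. DESeq2 1.42.0 was an alternative. The steps were tested on simulated data. Named genes are the 15 largest differences each way of at least 30 CPM past that threshold in all 3 ways, all myogenic factors, and up to 4 members per list past it in all 3 ways or else its 2 most abundant. Predicted, mitochondrial and ribosomal protein genes and those of the rule were left out of the largest. The text gives a subset, and a few genes are not reported here. Coordinates are from the RefSeq gene table (GRCm38). Of 106 genes whose last 300 transcript bases were searched in GENCODE transcripts (at least 90 bases at 95% identity), 15 have a near-identical copy, so reads of Myl1, Etv1, Cdc20, Ccnd3, Gclm, Fn1, Fstl1 and Meg3 in the text could be split or shared. Overlapping genes were not examined. The stromal barcodes and the stricter gate were added after seeing the data.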

Additional observations from a re-analysis of the deposited data

Results flagged for a closer look

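In 3 genes named above, the difference between cells with and without a Pax7 UMI was itself different between injured and homeostatic MuSC libraries, by the interaction term of edgeR's quasi-likelihood fit on the 4 sorted libraries, with Benjamini-Hochberg adjustment over 9277 genes (38 genes passed it). For Gal the adjusted p was 0.0168 and the difference of log2 folds, injured minus homeostatic, was 0.50 (SE 0.12). In cells with and without a Pax7 UMI, Gal had 667 and 780.3 CPM in injured 1, 621 and 589 CPM in injured 2, 2736 and 4268 CPM in homeostatic 1, and 4428 and 5245 CPM in homeostatic 2. Without barcodes shared within a group, an alternative chosen after seeing the data, the difference for Gal was 0.18 (SE 0.12, Benjamini-Hochberg adjusted p = 0.732, edgeR), so its call ended, while those of Igfbp5 (adjusted p = 4.05e-05) and Col1a2 (adjusted p = 0.0209) did not. In that alternative 153 of 9221 genes passed, in place of 38, so the number of genes passing depended strongly on those barcodes. For Igfbp5 the adjusted p was 0.0247 and the difference -1.44 (SE 0.35), with 15 and 503 UMIs (29.5 and 67.3 CPM) in injured 1, 6 and 492 UMIs (25.2 and 86.7 CPM) in injured 2, 65 and 458 UMIs (184 and 143 CPM) in homeostatic 1, and 28 and 439 UMIs (137 and 146 CPM) in homeostatic 2. For Col1a2 the adjusted p was 0.00355 (edgeR) and the difference 2.92 (SE 0.62). It had 34 and 560 UMIs (66.8 and 74.9 CPM) in injured 1, and 13 and 482 UMIs (54.5 and 85.0 CPM) in injured 2. In homeostatic 1 it had 4 and 173 UMIs (11.3 and 54.1 CPM), and in homeostatic 2 it had 0 and 226 UMIs (0 and 75.4 CPM). The interaction was not fitted with the stricter gate, under which no matrix gene was called lower within the sorted libraries.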

How the results depend on the processing

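Of the counts of genes past the threshold between Pax7-high and Pax7-0 myoblasts (486 higher, 382 lower), those that moved over 1.5 times were 683 lower with depth weighting (645 also without stromal barcodes), 2255 higher and 2587 lower with no filter on low genes, 871 and 650 with at least 5 Pax7 UMIs, and 90 and 132 at 1.5-fold. Single genes that changed sign were Bgn (0.11), Igfbp7 (0.0351), Mgp (0.14), Igfbp6 (0.19), Timp3 (0.13) and Col1a2 (1.49) with depth weighting and no stromal barcodes, Col1a2 (0.30) without those barcodes, Mgp (0.0256) and Fstl1 (0.0159) also thinned, and Myl1 (0.0079) and Tnni2 (0.71) with 0 Myog UMIs, all log2. Within sorted libraries (16 higher, 72 lower) edgeR called 10 higher with no filter, 5 and 13 after thinning, and 23 lower with the stricter gate. It called 0 and 0 with classes set after thinning, where the Pax7 class of injured 1 held only 5 cells. DESeq2 called 1 and 3. Leaving out each library gave 8 to 26 higher and 19 to 38 lower there (19 lower without homeostatic 1, 35 without homeostatic 2, 38 without injured 1 and 34 without injured 2), 3971 to 4357 and 3668 to 3794 against homeostatic, and 2590 to 4356 and 2702 to 3725 against injured MuSCs. With no replicate block the sorted fit called 4 and 7. Deviations of same-numbered libraries from their group means correlated at 0.0040. With 2 libraries per group this is the same value for both pairs by construction, so it cannot decide whether replicate numbers pair the libraries. With a replicate block the counts of the myoblast comparisons moved by less than 1.5 times. Against homeostatic MuSCs 2464 genes were higher after thinning and 2646 with DESeq2. Against injured MuSCs there were 6689 higher and 1986 lower with no scaling, 1548 and 2065 after thinning, and 1565 higher with DESeq2. Changes of sign there were Six2 (-0.0830) thinned and Igfbp6 (0.80) with the stricter gate against homeostatic, and Mef2a (0.0259), Six4 (0.0192), Igfbp6 (0.0239) and Tagln2 (0.0546) with no scaling and Igfbp7 (0.92) with the stricter gate against injured MuSCs. The cause of each was not tested. Without barcodes shared between libraries of a group, 20 and 62 genes were called within sorted libraries, 4401 and 3992 against homeostatic and 3782 and 3310 against injured MuSCs. The single myoblast library and the shallow sorted cells limit what can be seen.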
